A study of Mus musculus with 6 samples.

Results

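Glutathione S-transferase (GST) genes were examined in primary mouse embryonic fibroblasts (MEFs) with and without conditional deletion of Kansl1. The genes described are Gstm1, Gstm2, Gstm4, Gstm5, Gstm7, Gsta4, Gstp1, Gstt1, Gstt2 and Mgst1, which are 10 of the 26898 genes of the expression table. Gstm2 set the choice of this family. It was selected on the comparison reported here, because it had the largest fall among the well-expressed genes, so its own difference is given as a description without a test. Expression was given in TPM, transcript abundance normalised for gene length and sequencing depth. In the upper part of the tested genes by mean level (median 10.9 TPM), ranked by log2 fold change, Gstm2 was first at -2.31 and Sumf1, which encodes the enzyme that activates sulfatases, was next at -2.22. The other genes are named relatives of Gstm2, and the question was whether they fell with it.

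GSTs join the tripeptide glutathione to reactive, electrophilic molecules, which makes them more water soluble and ready for export from the cell. The cytosolic enzymes fall into classes (Mu, Alpha, Pi, Theta, Omega, Zeta) that work as dimers, the Kappa enzyme is found in mitochondria and peroxisomes, and a separate family of membrane proteins includes Mgst1. The Mu-class genes lie side by side in the genome. Many GST genes are known targets of NRF2 (gene Nfe2l2), a transcription factor that acts through the antioxidant response element and is held in check by KEAP1. KANSL1 is a scaffold subunit of the NSL complex, which acetylates histones at gene promoters.

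RNA was sequenced from 3 Kansl1fl/fl cultures (WT) and 3 Kansl1fl/fl/CAG-cre cultures (KO) of passage 3 MEFs on the C57BL/6 strain. All 6 carried floxed Kansl1 and all 6 were treated with tamoxifen at 1 μM for 48 h, which activates the Cre. The CAG promoter is active in most cell types. KO therefore differed from WT in the presence of Cre as well as in Kansl1, and these cannot be told apart here. The samples were named WT 4, WT 5 and WT 8, and KO 3, KO 7 and KO 10.

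Between 17655495 and 27718259 reads were assigned to genes per sample, with KO 3 the shallowest and KO 7 the deepest. Kansl1 was 28.5, 26.7 and 24.4 TPM in WT and 13.7, 15.8 and 14.4 TPM in KO. The KO mean was 55.1% of the WT mean (log2 fold change -0.82, limma adjusted p = 0.000859), over the whole gene and not the deleted part alone. All 10 fibroblast markers passed the expression filter, and 0 were called by limma (1 higher and 0 lower at an unadjusted p under 0.05) or by voom, with summed levels of 10277 to 14857 TPM in WT and 11006 to 14443 TPM in KO. Among macrophage markers, all 4 that were tested (Lyz2, Cd68, Csf1r, Adgre1) were above WT in every KO sample, as were 13.3% of all tested genes, and Lyz2 alone was called. Adgre1 passed the filter through KO alone. The list summed to 27.8 to 31.4 TPM in WT and 63.6 to 132 TPM in KO. All 3 smooth muscle markers (Acta2, Cnn1, Myh11) were below WT in every KO sample, as were 29.9% of all tested genes, and Myh11 alone was called, with sums of 5614 to 6350 TPM in WT and 4171 to 4891 TPM in KO. The part of these cell type markers in the GST results was not tested. In bulk RNA, fewer cells of a type and less RNA per cell cannot be told apart.

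The Mu-class genes occupy 149.1 kb of chromosome 3 (chr3:107895821-108044894, GRCm38, GENCODE M21 annotation). Gstm5 lies at one end on the plus strand and Gstm7, Gstm6, Gstm3, Gstm2, Gstm1 and Gstm4 follow on the minus strand. Gstm3 was not analysed here. The promoter windows of the 4 expressed Mu genes are shown because these neighbours did not move alike. Each runs from 250 bases before to 50 bases after the RefSeq start (GRCm38.p6) and reads 5′ to 3′ along the gene's strand. Capitals mark matches on either strand to the antioxidant response element core (TGACNNNGC), the AP-1 site (TGANTCA) and the CCAAT box (CCAAT). The first and the second pattern begin with the same letters and may overlap, but they did not in these windows.
Gstm2 (chr3:107986371-107986670, minus strand): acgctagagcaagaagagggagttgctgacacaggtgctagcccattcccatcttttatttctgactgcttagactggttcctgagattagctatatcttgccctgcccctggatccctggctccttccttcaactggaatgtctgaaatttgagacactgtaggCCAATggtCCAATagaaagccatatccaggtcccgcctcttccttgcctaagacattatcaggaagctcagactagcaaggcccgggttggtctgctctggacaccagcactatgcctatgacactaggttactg
Gstm5 (chr3:107895604-107895903, plus strand): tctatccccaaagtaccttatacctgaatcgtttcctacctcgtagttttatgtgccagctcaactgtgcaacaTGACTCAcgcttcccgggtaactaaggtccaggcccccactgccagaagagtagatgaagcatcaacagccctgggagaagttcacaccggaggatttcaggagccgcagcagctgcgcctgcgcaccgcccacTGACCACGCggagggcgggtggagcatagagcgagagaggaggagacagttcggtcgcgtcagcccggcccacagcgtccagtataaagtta
Gstm4 (chr3:108044810-108045109, minus strand): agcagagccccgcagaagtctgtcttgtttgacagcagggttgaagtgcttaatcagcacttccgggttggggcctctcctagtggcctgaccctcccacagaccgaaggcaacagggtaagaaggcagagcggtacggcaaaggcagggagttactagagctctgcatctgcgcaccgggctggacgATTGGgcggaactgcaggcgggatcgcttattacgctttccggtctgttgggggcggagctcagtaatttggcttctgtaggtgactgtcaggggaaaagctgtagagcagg
Gstm1 (chr3:108017924-108018223, minus strand): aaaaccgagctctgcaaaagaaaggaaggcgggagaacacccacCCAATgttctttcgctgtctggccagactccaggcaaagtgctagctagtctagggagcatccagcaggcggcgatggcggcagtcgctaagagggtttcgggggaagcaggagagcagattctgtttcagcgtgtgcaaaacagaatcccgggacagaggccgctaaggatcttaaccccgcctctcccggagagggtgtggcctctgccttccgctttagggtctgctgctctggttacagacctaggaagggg

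Gstm5 held both the antioxidant response element core, at base -42 from the start, and the AP-1 site, at base -176, which are found in 12.4% and 7.81% of 32851 mouse promoters of this length. Gstm2, Gstm4 and Gstm1 held neither. The CCAAT box occurred 2 times in Gstm2 and once each in Gstm4 and Gstm1, and 37.4% of promoters hold at least one. Gstm2 had 3 CpG dinucleotides in its window, against 18 in Gstm5, 14 in Gstm4, 14 in Gstm1 and a median of 7 over all promoters. Among the other members, Mgst1 held the antioxidant response element core at base -56 and Gstp1 the AP-1 site at base -74. The windows of Gsta4 and Gstt2 were not analysed here. A match describes letters only, and no match says only that those letters are absent from the window.

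Of the 10 members, 7 had a group mean of at least 1 TPM and entered the limma test on log2(TPM + 1). All 7 were above 1 TPM on average in both groups. A gene was called at an adjusted p under 0.005 and a log2 fold change beyond 0.5 in either direction. Leaving aside Gstm2, whose fall set the choice, 6 members were tested by this rule. Gstm4 and Gstm5 were lower in KO, Gsta4 was higher, and Gstm1, Gstp1 and Mgst1 were not called. Among all 14799 genes tested, 1337 were lower (9.03%) and 242 were higher (1.64%), together 10.7%. With Gstm2 included, the median log2 fold change of the 7 members was 0.16, and it was -0.07 over all tested genes.

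Gstm2 (ENSMUSG00000040562.12, chr3:107981702-107986453, minus strand) encodes a Mu-class enzyme whose human counterpart is known from muscle. It was expressed at 25.1, 25.4 and 22.7 TPM in WT and at 2.54, 6.15 and 4.27 TPM in KO. Each KO sample was far below each WT sample. The means were 24.4 ± 1.51 and 4.32 ± 1.80 TPM (SD, n = 3), which is 5.65-fold higher in WT. These values rest on 342 to 374 reads per WT sample and 31 to 100 reads per KO sample. KO 3, the shallowest sample, was the lowest, and KO 7, the deepest, was the highest.

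Gstm5 (ENSMUSG00000004032.10, chr3:107895821-107898686), a Mu-class gene known for expression in brain and testis, was at 28.6, 25.6 and 20.3 TPM in WT. It was at 6.78, 8.08 and 9.90 TPM in KO, so the groups did not overlap. The mean fell from 24.8 ± 4.20 to 8.25 ± 1.57 TPM (log2 fold change -1.48 ± 0.16 SE, limma adjusted p = 0.000379). Every KO sample lay below every WT sample for 29.9% of all tested genes, so separation alone is common in this direction. The gene was called in all 12 alternative fits. Its exons overlap 178 bases of 4933431E20Rik on the opposite strand, a transcript with a mean of 0.768 TPM in WT and 0.198 TPM in KO.

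Gstm4 (ENSMUSG00000027890.17, chr3:108040408-108044894), another Mu-class enzyme, had lower levels than Gstm2 and Gstm5 in WT, at 8.75, 9.02 and 6.12 TPM. In KO it was at 1.93, 3.20 and 1.44 TPM, again without overlap between groups. The mean went from 7.96 ± 1.60 to 2.19 ± 0.909 TPM (log2 fold change -1.51 ± 0.22 SE, limma adjusted p = 0.00128). It was called in 9 of 11 alternative fits. The call was lost without KO 3 (limma adjusted p = 0.00792, log2 fold change -1.47) and when all genes were tested without a filter (limma adjusted p = 0.0121).

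Gstm1 (ENSMUSG00000058135.12, chr3:108012255-108017973), a Mu-class enzyme best known from liver, lies between Gstm2 and Gstm4. It was at 29.9, 24.6 and 20.8 TPM in WT and at 28.7, 30.6 and 35.2 TPM in KO. The groups overlapped because WT 4 was above KO 3. The means of 25.1 ± 4.56 and 31.5 ± 3.36 TPM gave a log2 fold change of 0.32 (95% interval 0.00 to 0.64, limma adjusted p = 0.122). Its direction was positive under every alternative tried, between 0.20 and 0.45. The limma adjusted p ran from 0.0178 (with voom) to 0.356 over those fits, and none of them called it. Thus 3 Mu genes of like level in WT, Gstm1, Gstm5 and Gstm2, whose means of 25.1, 24.8 and 24.4 TPM lay within the spread between samples, stood at 31.5, 8.25 and 4.32 TPM in KO.

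The levels of Gstm5 and Gstm4 relative to Gstm1 were also taken within each sample, after adding 1 TPM to each level. They are a description, since these genes were paired after their changes were seen. The log2 ratio of Gstm5 to Gstm1 was -0.06, 0.05 and -0.04 in WT and -1.93, -1.80 and -1.73 in KO. The log2 ratio of Gstm4 to Gstm1 was -1.67, -1.36 and -1.62 in WT and -3.34, -2.91 and -3.89 in KO. The mean differences between groups were -1.81 and -1.83, and for both ratios every KO sample was below every WT sample. The added 1 TPM draws these ratios towards 0, most for Gstm4, which was at 1.44 to 3.20 TPM in KO. The fall of Gstm4 is therefore understated on this scale, and the differences are not compared with each other.

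Gstm7 (ENSMUSG00000004035.12, chr3:107926334-107931817) was at 0.771, 0.712 and 0.725 TPM in WT and at 0.172, 0.902 and 0.210 TPM in KO. It did not reach 1 TPM on average in either group and was not tested at this filter. KO 7 was the highest of the 6 samples while the other KO samples were the lowest, on 10 to 11 reads in WT and 2 to 14 reads in KO. Gstm6, the remaining Mu gene with values, had means of 0.699 and 0.399 TPM and overlapping groups.

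The Mu genes together reached 94.1, 86.0 and 71.1 TPM in WT and 40.6, 49.3 and 51.3 TPM in KO. The mean sum was 83.7 ± 11.6 TPM in WT and 47.1 ± 5.68 TPM in KO. Gstm1 made up 29.9% ± 1.68 of the sum in WT and 67.1% ± 4.42 in KO, while Gstm2 made up 29.4% ± 2.58 and 9.01% ± 3.17. The share of Gstm5 was 29.6% ± 0.937 in WT and 17.5% ± 1.61 in KO. Since Gstm2 was chosen for its fall, the sum and these shares are descriptions.

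**Figure D1:**
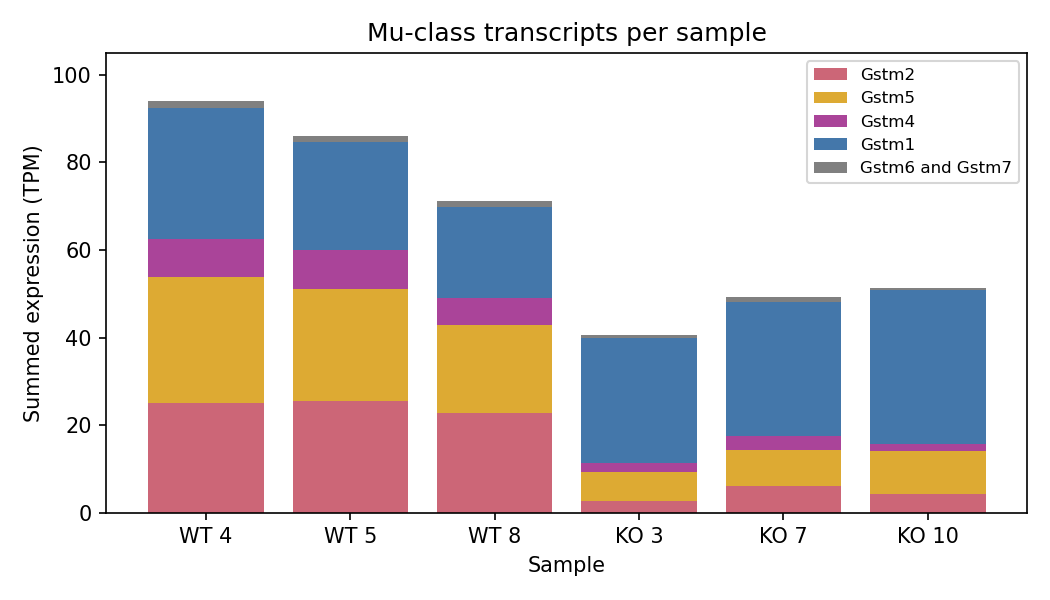
Stacked bars give the expression (TPM, axis from 0) of the Mu-class genes in each of the 6 samples. The blue Gstm1 segment is of like height in both groups, while the Gstm2, Gstm5 and Gstm4 segments are shorter in KO, and the sums are 71.1 to 94.1 TPM in WT and 40.6 to 51.3 TPM in KO.

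Near-identical copies can exchange reads during alignment, so transcripts of each gene were searched for 100-base windows that also occur in transcripts of another gene. Such windows made up 0.357% of Gstm2, 0% of Gstm4 and Gstm7, 5.58% of Gstm5 (all in the overlapping opposite-strand transcript) and 5.86% of Gstm1, for which Gstm2-ps1 held the most. The longest annotated coding sequences were aligned, and identity was taken over all columns, gaps included. Gstm2 was 76.9% identical to Gstm1, 82.7% to Gstm4, 84.9% to Gstm7 and 71.0% to Gstm5. The Gstm1 sequence was 735 bases long against 657 for Gstm2, and the gaps lower its share. Identical bases numbered 565 with Gstm1, 543 with Gstm4, 558 with Gstm7 and 479 with Gstm5. Gstp1 shared 25.1% of its windows, all with Gstp2, so the division of reads between these 2 genes is uncertain.

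Gsta4 (ENSMUSG00000032348.6, chr9:78182774-78209349), an Alpha-class enzyme that conjugates the lipid peroxidation product 4-hydroxynonenal, moved the other way. It was at 8.09, 4.50 and 5.08 TPM in WT and at 11.0, 12.5 and 12.2 TPM in KO. WT 4 was the WT sample nearest to KO, and no samples overlapped. The mean rose from 5.89 ± 1.93 to 11.9 ± 0.803 TPM (log2 fold change 0.94 ± 0.18 SE, limma adjusted p = 0.00496). The value lies just inside the threshold, and Gsta4 was called in 4 of 12 alternative fits, with log2 fold changes from 0.79 to 1.15 over all 12. It entered the fit on genes of at least 10 TPM, one of those calls, through KO alone. Leaving out any one of WT 5, WT 8, KO 3, KO 7 and KO 10 ended the call (limma adjusted p from 0.0132 to 0.0189).

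Mgst1 (ENSMUSG00000008540.11, chr6:138140316-138156755), a membrane-bound transferase with peroxidase activity, was at 7.23, 7.53 and 7.96 TPM in WT and at 9.02, 12.9 and 11.8 TPM in KO. Every KO sample was above every WT sample, as for 13.3% of all tested genes. The means were 7.58 ± 0.366 and 11.2 ± 2.01 TPM (log2 fold change 0.50, 95% interval 0.18 to 0.82, limma adjusted p = 0.0271), which did not pass. With voom, limma's method for read counts, its adjusted p was 0.00352 and it was called.

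Gstp1 (ENSMUSG00000060803.6, chr19:4035407-4037985), the Pi-class enzyme, had the highest level of the 10 members. It was at 138, 151 and 143 TPM in WT and at 136, 180 and 168 TPM in KO, and the groups overlapped through KO 3. The means were 144 ± 6.49 and 161 ± 22.9 TPM (log2 fold change 0.16, 95% interval -0.11 to 0.42, limma adjusted p = 0.349). Over the alternative fits the limma adjusted p ran from 0.0198 (with voom) to 0.706, with log2 fold changes of 0.07 to 0.28, and none called it.

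Both Theta-class members were below 1 TPM on average in each group and were not tested at this filter. Gstt2 (ENSMUSG00000033318.7, chr10:75831114-75837424) was at 1.01, 0.851 and 0.812 TPM in WT and at 0.0662, 0.273 and 0.0539 TPM in KO. Its groups did not overlap, with 31 to 34 reads in WT and 2 to 11 in KO. Tested without the filter on low values, Gstt2 had a limma adjusted p of 0.00992 and a log2 fold change of -0.75, a scale that understates changes of low genes because of the pseudocount of 1. Gstt1 (ENSMUSG00000001663.10, chr10:75783813-75798584) was at 0.323, 1.12 and 0.552 TPM in WT and at 0.360, 0.405 and 0.220 TPM in KO, on 3 to 15 reads, and its groups overlapped.

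**Figure D2:**
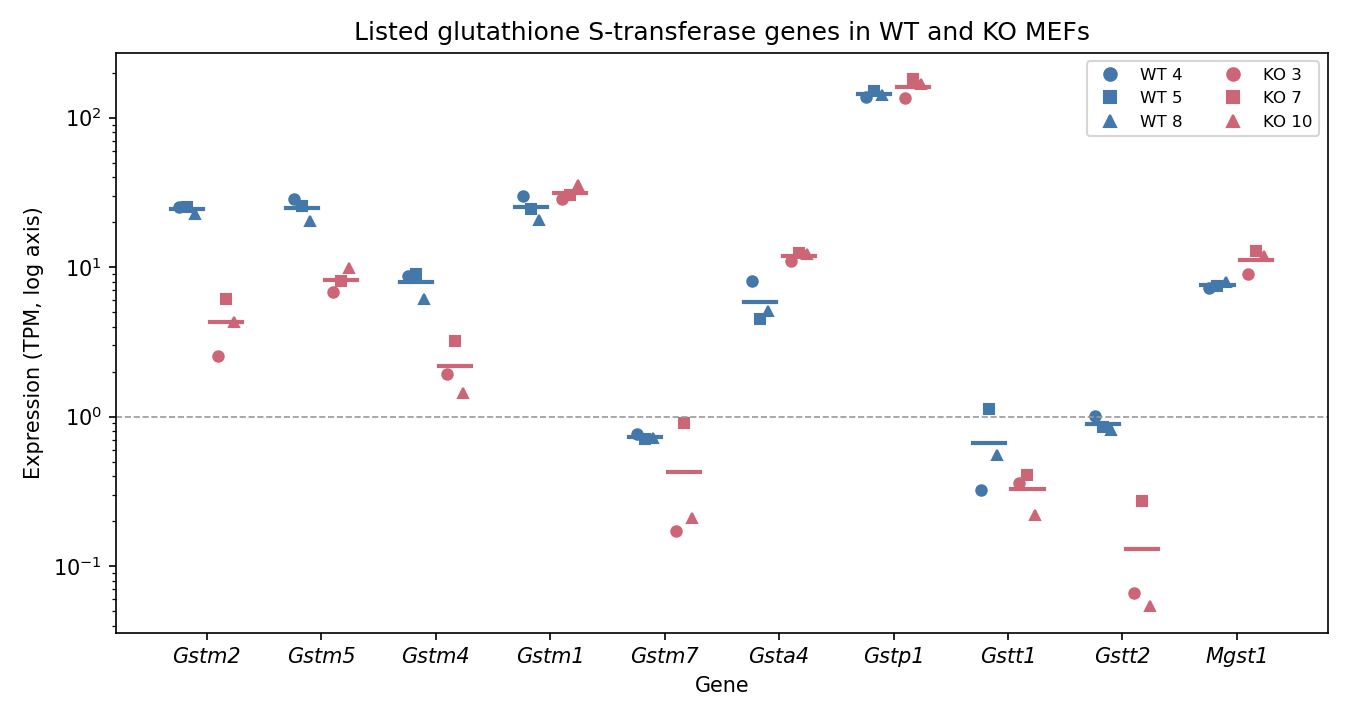
Each point is the expression of a gene (TPM, log axis) in 1 of 3 WT or 3 KO samples, short lines are group means, and the dashed line marks 1 TPM. Gstm2, Gstm5, Gstm4 and Gstt2 lie lower in every KO sample and Gsta4 and Mgst1 higher, while Gstm1, Gstm7, Gstp1 and Gstt1 overlap.

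Ordered by WT mean, the members ran from Gstp1 (144 TPM) through Gstm1, Gstm5 and Gstm2 to Gstm4 (7.96 TPM), Mgst1 (7.58 TPM), Gsta4 (5.89 TPM), Gstt2 (0.891 TPM), Gstm7 (0.736 TPM) and Gstt1 (0.665 TPM). Gstm4, Mgst1 and Gsta4 were within the spread between samples of each other, and Gstt1 overlapped Gstt2 and Gstm7, while Gstt2 was above Gstm7 in each WT sample. In KO, Gstp1 was followed by Gstm1, Gsta4 (11.9 TPM), Mgst1 (11.2 TPM), Gstm5 and Gstm2. Gsta4 and Mgst1 were again within their spread.

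Other GST and related genes were read for comparison, and 9 of 18 with values passed the filter. Gsto1, an Omega-class enzyme that reduces rather than conjugates its substrates, was the most abundant of all. It was at 432, 355 and 360 TPM in WT and at 598, 580 and 561 TPM in KO, without overlap. The mean rose from 382 ± 43.0 to 580 ± 18.5 TPM (log2 fold change 0.60, limma adjusted p = 0.00274), a call kept in 5 of 12 alternative fits and lost when any sample other than WT 4 was left out (adjusted p from 0.00994 to 0.0152). Gsto1 therefore took 53.4% ± 2.19 of the summed expression of all GST and related genes in WT and 64.6% ± 3.43 in KO. That sum was 715 ± 54.7 TPM in WT and 898 ± 25.5 TPM in KO, higher in every KO sample although the Mu sum was lower.

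Gstk1, the Kappa-class enzyme, was at 2.94, 3.88 and 3.09 TPM in WT and at 0.936, 0.843 and 0.686 TPM in KO. The mean fell from 3.30 ± 0.507 to 0.822 ± 0.126 TPM (log2 fold change -1.24, limma adjusted p = 0.00110). It was called in 9 of 11 alternative fits, and the call was lost without WT 5 (limma adjusted p = 0.00557) and when all genes were tested without a filter (limma adjusted p = 0.00691). It passed the filter through WT alone, as did Gstt3. Gstt3, of the Theta class, had means of 1.46 ± 0.269 and 0.269 ± 0.0715 TPM with no overlap (log2 fold change -0.95, limma adjusted p = 0.00812) and was not called, but it was called by voom (log2 fold change -2.30) and by limma without a variance trend (adjusted p = 0.00182, log2 fold change -0.95).

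The remaining 6 tested genes were not called. These were Gstz1 (log2 fold change -0.27), Mgst3 (-0.37), Gstp2 (0.16), Gsto2 (0.04), Ptges (0.27) and Gstcd (-0.26), with limma adjusted p between 0.143 and 0.915. Of these, Gstz1 was below WT in every KO sample, and the groups overlapped for the rest. Gstp3, a Pi-class gene, had 0 reads in all WT samples and 4, 3 and 9 reads in KO, up to 1.11 TPM, and was not tested at this filter. Tested without the filter on low values, it was not called (limma adjusted p = 0.0308).

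**Figure D3:**
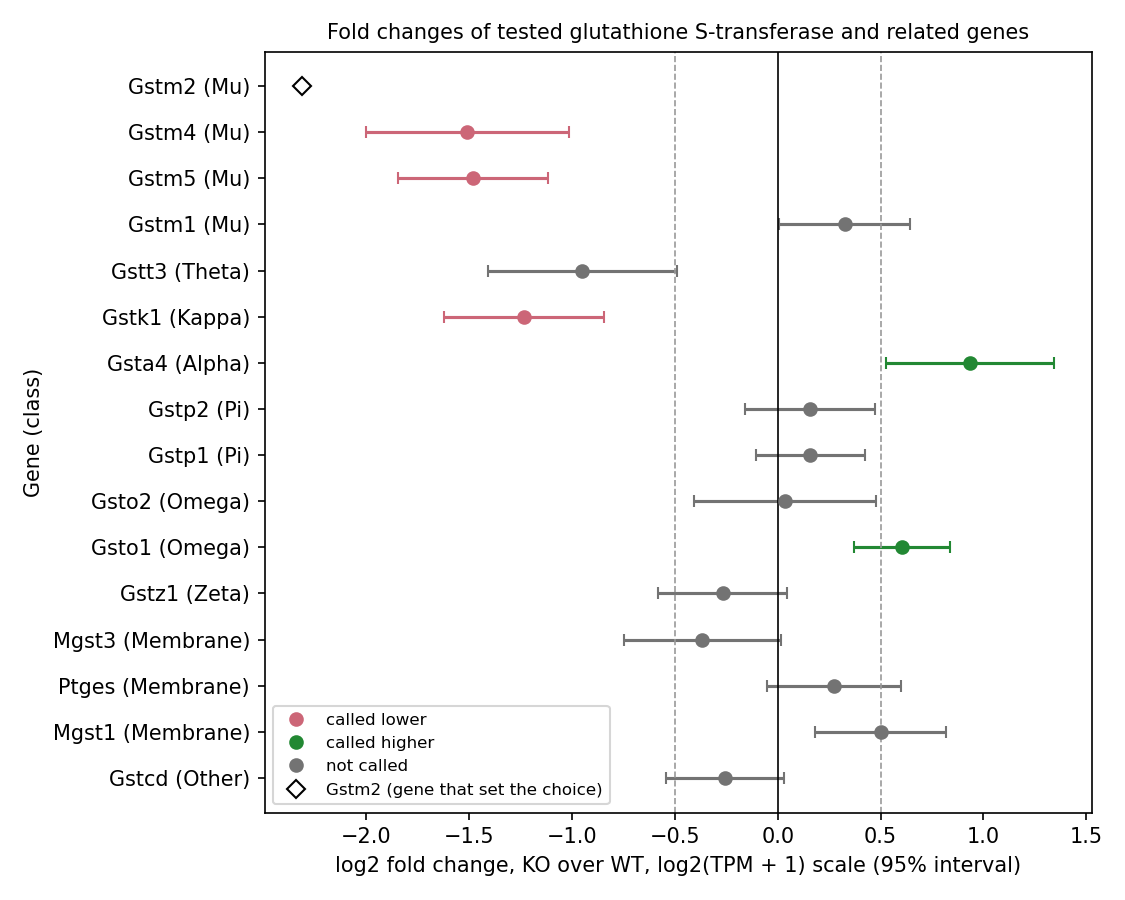
Points give the log2 fold change (KO over WT, log2(TPM + 1) scale) of the 16 tested genes by class, with 95% intervals from limma except for Gstm2, which is drawn without one because it set the choice. Gstm4, Gstm5 and Gstk1 lie on the lower side beyond the dashed lines at 0.5 and were called (Gstk1 passed the filter through WT alone), Gsta4 and Gsto1 were called higher, and Gstm1 lies right of 0 among the genes not called.

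Position was examined next. Within 500 kb of the Gstm2 start, 22 other protein-coding genes were annotated and 15 entered the test, with a median log2 fold change of 0.01. Sort1, a sorting receptor of the Golgi, lay 297.6 kb away and fell from 15.3 ± 1.23 to 9.22 ± 1.03 TPM (log2 fold change -0.68, limma adjusted p = 0.00326). Psrc1, a microtubule-associated protein, lay 397.4 kb away and rose from 59.6 ± 4.32 to 95.7 ± 12.7 TPM (log2 fold change 0.67, limma adjusted p = 0.00309). Each was called in 5 of 12 alternative fits, and leaving out any one sample left 0 or 1 neighbour called.

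The other 13 were not called, and a share of 10.7% was called among all tested genes, beside 2 of 15 here. The nearest tested genes lay beyond Gstm4, and they were Ampd2 at 100.2 kb (log2 fold change 0.40, limma adjusted p = 0.0253), Gnai3 at 159.7 kb (0.02, adjusted p = 0.927) and Amigo1 at 199.9 kb (-0.92, adjusted p = 0.00718). Ampd2, an AMP deaminase, was above WT in every KO sample. Amigo1, a neuronal adhesion protein, had means of 1.74 and 0.444 TPM and passed the filter through WT alone.

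**Figure D4:**
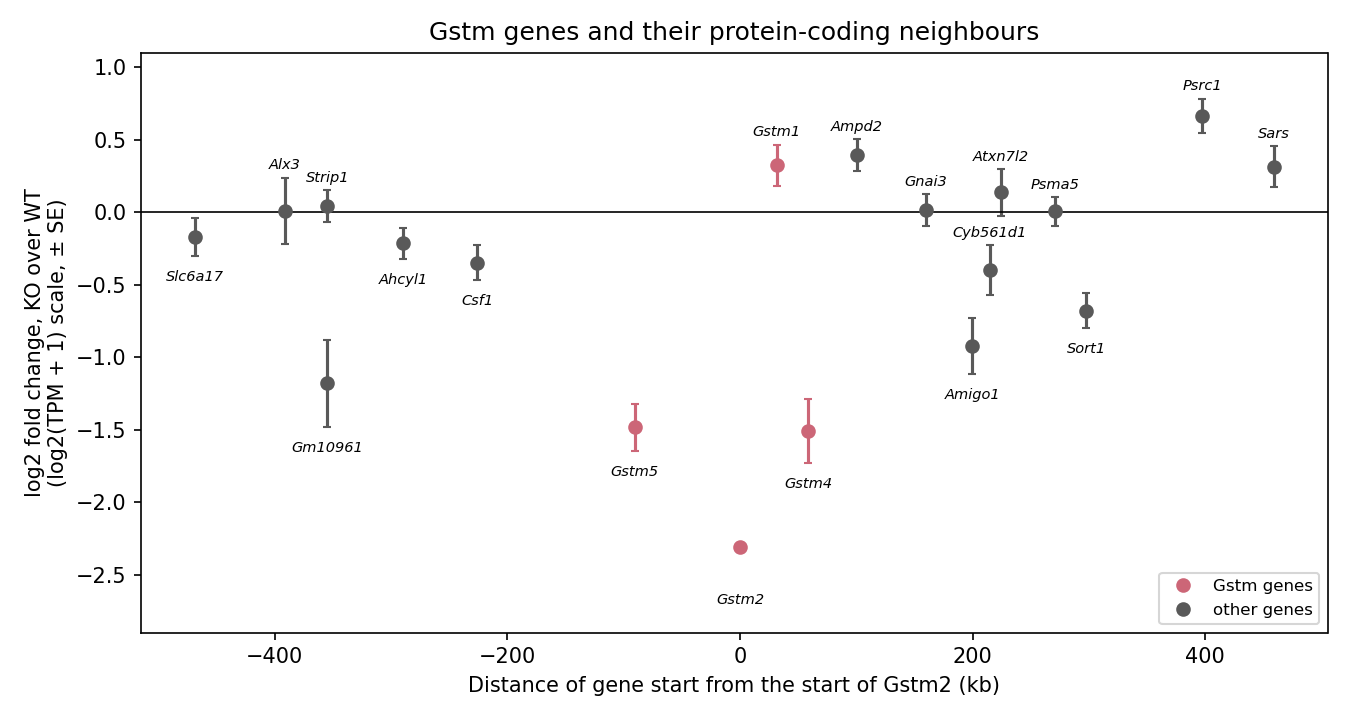
The log2 fold change (KO over WT, log2(TPM + 1) scale) of each tested gene is plotted against the distance of its start from the Gstm2 start (kb), with standard errors except for Gstm2. Gstm5, Gstm2 and Gstm4 are at -1.48, -2.31 and -1.51, while Gstm1, 31.5 kb from Gstm2, is at 0.32 and the genes beyond Gstm4 begin with Ampd2 at 0.40.

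Genes that make, use and remove glutathione were counted from lists written by function. Of 39 tested genes of glutathione metabolism, 1 was called higher and 2 lower, beside 1.64% and 9.03% of all tested genes. One of the lower calls, Acy3, had entered the test through WT alone, so the count is not read as a result. At an unadjusted p under 0.05, limma gave 14 higher and 7 lower of these 39, beside 12.2% higher and 27.2% lower among all 14799 genes. The lower genes include Acy3 and Abcc3, which both passed the filter through WT alone. Among 10 genes listed under synthesis and supply, 5 were higher and 1 lower at that unadjusted level. This list also holds glutathione-degrading genes such as Chac1, so the count does not describe synthesis alone. The called gene was Gss, glutathione synthetase, at 12.1, 11.2 and 11.5 TPM in WT and 18.9, 18.3 and 18.6 TPM in KO (log2 fold change 0.64, limma adjusted p = 0.00185). Gss was called in 6 of 12 alternative fits. Gclc, the catalytic subunit of the rate-limiting synthesis enzyme, was above WT in every KO sample with means of 28.6 ± 4.69 and 38.9 ± 2.64 TPM but was not called (limma adjusted p = 0.0316). Slc3a2, the heavy chain of the cystine importer, had means of 130 ± 17.6 and 179 ± 21.9 TPM (limma adjusted p = 0.0271). Chac1, a glutathione-degrading cyclotransferase, had overlapping groups with means of 31.7 ± 14.1 and 41.8 ± 11.0 TPM.

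Among 18 genes that use or recycle glutathione, 0 were called by limma, with 8 higher and 2 lower at an unadjusted p under 0.05. Voom called 3 higher (4.05% of all genes), limma after median-of-ratios scaling 3 higher (2.99% of all genes) and limma without WT 4 called 1 higher (1.70% of all genes). On genes of at least 10 TPM limma called 1 lower, which reached that minimum through WT alone. The most abundant were the peroxidases Gpx1 (305 ± 8.22 TPM in WT, 343 ± 15.6 TPM in KO) and Gpx8 (247 ± 24.9 and 272 ± 6.60 TPM) and the S-formylglutathione hydrolase Esd (243 ± 36.4 and 340 ± 6.13 TPM). Their limma adjusted p were 0.201, 0.310 and 0.0115. The median log2 fold change of the 18 genes was 0.18.

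Among 11 genes of conjugate export and breakdown, Ggt7, of the gamma-glutamyltransferase family, and Acy3, an aminoacylase that acts on mercapturic acids, were called lower. At an unadjusted p under 0.05, limma gave 1 higher and 4 lower in this list, beside 12.2% and 27.2% of all tested genes. Abcc3, among the lower, passed the filter through WT alone. Ggt7 fell from 9.34 ± 2.07 to 4.24 ± 0.820 TPM (log2 fold change -0.97, limma adjusted p = 0.00426), a call kept in 2 of 11 alternative fits. Acy3 fell from 2.41 ± 0.625 to 0.616 ± 0.118 TPM (log2 fold change -1.06, limma adjusted p = 0.00469). It passed the filter through WT alone and was called in 4 of 11 alternative fits. Lap3, a leucine aminopeptidase, and Abcc1, the main exporter of glutathione conjugates, were among the most abundant genes of this list and had overlapping groups and log2 fold changes of -0.08 and 0.10. Scaling by median-of-ratios changed these calls to 6 higher and 0 lower among the 39 genes, against 1 and 2, while over all genes the shares went from 1.64% to 2.99% higher and from 9.03% to 10.1% lower. Leaving out any one sample other than WT 4 left 0 of the 39 called.

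Of 12 tested regulators of GST genes, 0 were called by limma, with 9 higher and 0 lower at an unadjusted p under 0.05. Voom called 2 higher, and limma called 1 higher without WT 4, KO 3 or KO 10. On genes of at least 10 TPM limma called 3 higher, of which Cebpb and Ahr reached that minimum through KO alone. Over all genes tested, limma gave 12.2% higher and 27.2% lower at that unadjusted level, and the share called higher was 1.64% by limma, 4.05% by voom and 4.17% on genes of at least 10 TPM. Nfe2l2 itself was at 76.5, 78.7 and 73.6 TPM in WT and at 82.4, 104 and 100.1 TPM in KO (log2 fold change 0.31, limma adjusted p = 0.0605). Nfe2l1, its relative, had means of 156 ± 13.5 and 196 ± 19.4 TPM (log2 fold change 0.33, limma adjusted p = 0.0518). Cul3, the ubiquitin ligase scaffold that works with KEAP1, had overlapping groups with means of 78.4 ± 12.4 and 76.3 ± 5.50 TPM.

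NRF2 targets outside the glutathione lists gave 4 genes called higher and 0 called lower among 14 tested (9 higher and 1 lower at an unadjusted p under 0.05), beside 1.64% called higher and 9.03% called lower of all tested genes. Voom called 6 higher and 0 lower (4.05% and 12.7% of all genes), and limma with all genes tested called 1 higher and 0 lower (0.204% and 1.06%). Nqo1, a quinone reductase, was at 41.6, 22.2 and 23.4 TPM in WT and at 62.6, 68.6 and 67.6 TPM in KO, with WT 4 nearest to KO as for Gsta4 (log2 fold change 1.22, limma adjusted p = 0.00242). Srxn1, sulfiredoxin, rose from 68.3 ± 2.25 to 118 ± 9.15 TPM (log2 fold change 0.78, limma adjusted p = 0.000623) and was called in all 12 alternative fits. Sqstm1, the autophagy adaptor p62, rose from 264 ± 25.4 to 425 ± 19.6 TPM (log2 fold change 0.69, limma adjusted p = 0.00129). Ftl1, ferritin light chain, rose from 236 ± 13.3 to 342 ± 20.6 TPM (log2 fold change 0.53, limma adjusted p = 0.00312). Of 12 alternative fits, Sqstm1 was called in 8, Nqo1 in 6 and Ftl1 in 5. Txn1 and Prdx1, the most abundant of the list, overlapped between groups at log2 fold changes of 0.17 and 0.29. Left out singly, KO 3 or KO 7 reduced the calls of this list to 1 and WT 5, WT 8 or KO 10 reduced them to 2, while without WT 4 they numbered 6.

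**Figure D5:**
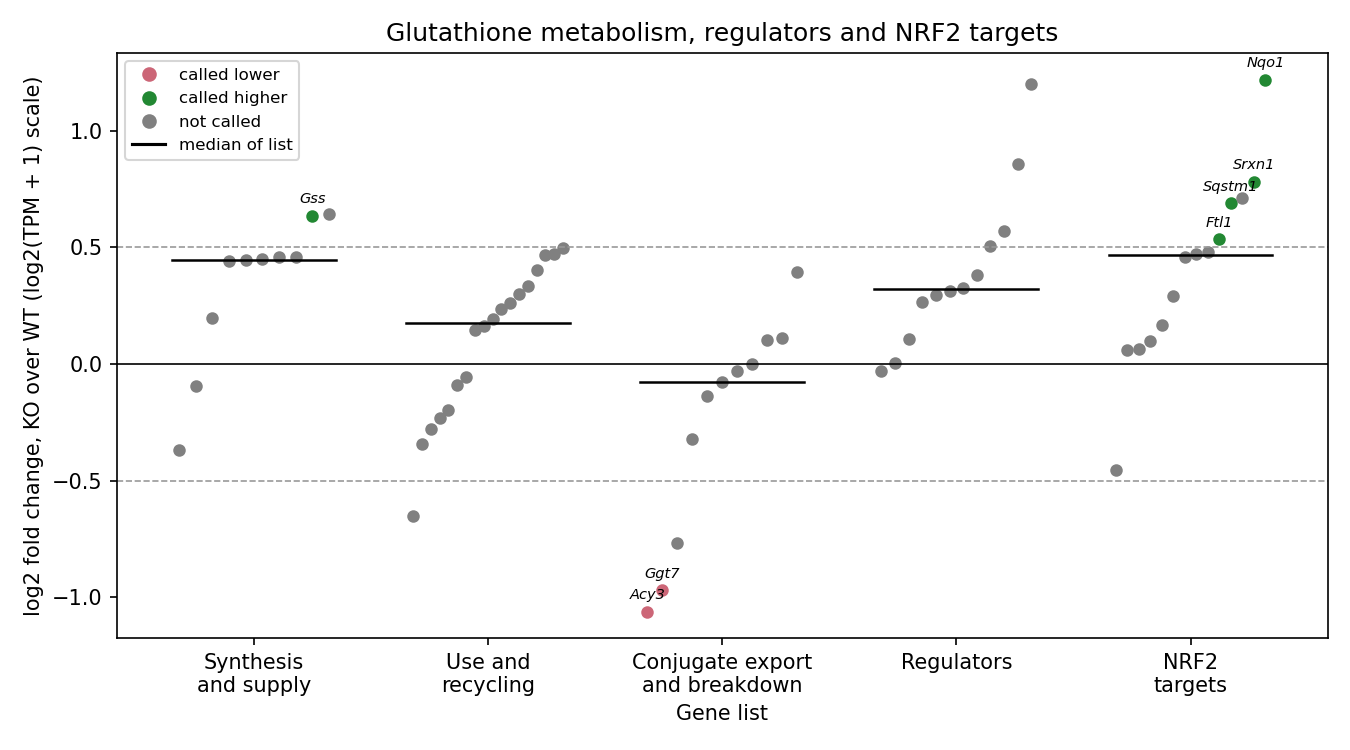
Each point is the log2 fold change (KO over WT, log2(TPM + 1) scale) of a tested gene in the lists of glutathione synthesis, use, export, regulators and NRF2 targets, with the median of each list as a line and dashed lines at 0.5. Medians run from -0.08 for conjugate export and breakdown to 0.47 for NRF2 targets. The called genes are Gss, Ggt7, Acy3 (which passed the filter through WT alone), Nqo1, Srxn1, Sqstm1 and Ftl1.

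The genes most like Gstm2 over the 6 samples were found by the root mean square difference of log2(TPM + 1) profiles. Each profile was centred on the gene's own WT mean, so the measure largely follows the size of the difference in KO. They were Sumf1 (0.227), Asf1b (0.231), Slc18b1 (0.234), Rtl8c (0.246) and Plgrkt (0.253), on chromosomes 6, 8, 10, X and 19. Each was lower in every KO sample, with log2 fold changes from -2.36 (Slc18b1) to -2.02 (Asf1b). Because Gstm2 was chosen for this pattern, the likeness is a description, and no member of the GST family was among these genes.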

How the data were processed

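Gene expression was measured by RNA sequencing of 3 WT and 3 KO cultures, from 3 mice per group according to the study's methods. P-values measure the spread between these samples. The authors aligned reads to mm10 (STAR according to the methods, while the submitters' processing notes list Bowtie 0.12.2) and deposited 1 table with TPM per gene and sample. The counting program and strand setting were not given in the sources used here. The deposited table also holds the authors' log2 fold changes and adjusted p-values, which were not used. TPM multiplied by exon length from GENCODE M21 and rescaled gave whole reads for 100.0% of the values checked in each sample (tolerance 0.05), which served for depth and for voom.

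Genes with a group mean of at least 1 TPM were tested on log2(TPM + 1) with limma 3.58.1 (trended empirical Bayes, R 4.3.3). Benjamini-Hochberg adjustment ran over all 14799 genes. A gene was called at an adjusted p under 0.005 and a log2 fold change beyond 0.5. The study applied these thresholds to DESeq2 results, so the calls here are not those of the study. The procedure was tested on simulated data, with an outcome that is not reported here. The members and lists were chosen with earlier results of these data known. Genes were named by a fixed rule: Kansl1, all members, other tested GST genes, of each glutathione list the called genes and the 3 with the highest mean, neighbours that were called or the 3 nearest, the 5 genes most like Gstm2, and the gene ranked next to it. An item that this rule names is not reported here. Alternatives were other filters, pseudocounts, scalings, thresholds and leaving out each sample. Intervals are limma's and cover the spread between samples.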

Additional observations from a re-analysis of the deposited data

How the results depend on the processing

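The directions of Gstm1, Gstm2, Gstm4, Gstm5, Gsta4, Gstp1 and Mgst1 held under every alternative tried (Gstm2 between -2.56 and -2.05), and Gstm5 kept its call in all of them. Among the 16 GST and related genes tested at the main filter, only Gsto2 reversed, from 0.04 to -0.12 without WT 5 and -0.04 without KO 10. It was 0.19 without WT 4.

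Members called numbered 4, against 2 with all genes tested; both counts hold Gstm2 by its selection, and without it they were 3 and 1. The number called higher, 1, became 0 with all genes tested, with a pseudocount of 0.1 and without a variance trend, and 2 with voom and at an adjusted p under 0.05. Leaving out single samples gave 2 to 4 members called with Gstm2, 0 to 1 of them higher.

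Across the table, 1579 genes were called, against 341 with all genes tested (55 higher, 286 lower), 2475 with voom (600 higher) and 3147 at an adjusted p under 0.05 (694 higher, 2453 lower). Scaling by median-of-ratios gave 442 higher and shifted the median over all genes by 0.08. Leaving out single samples gave 758 to 1081 in all, 84 to 252 higher and 617 to 938 lower, with the fewest in all without WT 5 and the fewest higher without KO 7.

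Glutathione metabolism genes called numbered 3 (1 higher, 2 lower). They numbered 0 with all genes tested (0 higher, 0 lower), 6 with median-of-ratios scaling (6 higher, 0 lower), 9 with voom (7 higher) and 6 at an adjusted p under 0.05 (2 higher, 4 lower), while with a 10 TPM minimum 1 was called lower, which was neither Ggt7 nor Acy3 but Hagh (named here after its values were seen), which reached that minimum through WT alone. Leaving out single samples gave 0 to 4 called, 0 to 2 higher and 0 to 2 lower. Acy3, among the lower calls, passed the filter through WT alone, as did Abcc3, which was called lower at an adjusted p under 0.05. Neighbours called numbered 2, against 0 with all genes tested, 1 without a variance trend, 4 at an adjusted p under 0.05 and 0 to 1 when single samples were left out. The neighbours gained at an adjusted p under 0.05, Gm10961 and Amigo1, passed the filter through WT alone. The causes of these shifts were not tested.

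The planned TMM scaling was not run, since it belongs to a count test. The voom fit with median-of-ratios library sizes replaced it and was chosen after seeing the data. No paired analysis was possible because WT and KO share no replicate numbers. With 3 samples per group, genes near the threshold such as Gsta4 and Gsto1 were called under some settings and not others, and at 2 to 14 reads Gstm7, Gstt1 and Gstt2 in KO had too little depth for a firm level.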

Other observations

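Markers of other cell types were read in the same samples. Lyz2, the lysozyme of macrophages, was at 23.8, 20.6 and 23.1 TPM in WT and at 53.1, 57.0 and 111 TPM in KO (log2 fold change 1.59, limma adjusted p = 0.00142), with KO 10 the highest. Ptprc, the pan-leukocyte marker CD45, did not pass the filter. Myh11, smooth muscle myosin heavy chain, fell from 25.5 ± 3.79 to 11.5 ± 0.944 TPM (limma adjusted p = 0.000614). Lyz2 and Myh11 were each called in 11 of 12 alternative fits. The tested epithelial (Krt18, Krt8) and endothelial (Kdr) markers were above WT in every KO sample, as were 13.3% of all tested genes. They were not called (limma adjusted p of 0.0741, 0.0446 and 0.0768). The epithelial list summed to 40.4 to 45.7 TPM in WT and 49.2 to 66.3 TPM in KO. Sums of the endothelial list were 1.03 to 1.74 TPM in WT and 2.23 to 2.86 TPM in KO. Epcam, Cdh1, Cdh5 and Pecam1 did not pass the filter. The tested skeletal muscle marker (Des) and neural markers (Tubb3, Sox10, Sox2) overlapped between groups, and no adipocyte marker passed the filter. Of the hepatocyte markers, Afp was at no more than 0.0665 TPM in any sample, and the other 3 of that list were not analysed here.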
